A study of Mus musculus with 24 samples.

Results

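In epididymal white adipose tissue (eWAT), the abdominal fat depot beside the testis, ChIP-seq placed Rev-erbα at 640 promoter sites that no Rev-erbα peak of the brain overlapped. They were chosen by 2 measured properties of the 9016 peaks deposited for eWAT, namely that a peak shared no base with any of the 10687 brain peaks and that its centre lay within 1000 bp of a transcription start of a protein-coding gene. They made up 7.1% of the eWAT peaks. Of the 790 eWAT promoter sites they were 81.0%, beside 92.2% of all eWAT peaks that had no brain peak. Both peak lists came from wild-type C57BL/6J mice at zeitgeber time 10 (10 h after lights on), with 2 libraries for eWAT and 1 library for the ventral tegmental area of the brain, and each tissue was represented by 1 list. The liver list held 245360 strand-specific borders from Rev-erbα ChIP-exo of wild-type C57BL/6J liver at the same time (2 libraries), an assay that digests the DNA ends until the bound protein stops the exonuclease, so that a border marks the protein's edge. Age and sex are not given, although a fat depot beside the testis comes from males, which covers the eWAT list only. The other 13 groups of the series were not analysed here. Read depth and values per library are unknown. The p-values below therefore compare sites in lists and say nothing of the spread between animals, and whether a site outside the brain list lies below the threshold of that single library was not tested.

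Rev-erbα, encoded by Nr1d1, is a heme-binding nuclear receptor that represses transcription by bringing the NCoR and HDAC3 corepressor complex to DNA. It binds as a monomer to the RORE, an AGGTCA core preceded by an A and T rich stretch that the activating ROR receptors also use, or as a dimer to a pair of such cores. It links the circadian clock to metabolism, and in fat it acts in tissue where PPARγ and C/EBP factors drive adipocyte genes. Around many clock genes the activators CLOCK and BMAL1 bind the E-box CACGTG, which other factors such as USF also recognise.

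The sequences of some of these sites are shown first, because the motif comparisons below turn on their letters. All are the plus strand of mm9, 5′ to 3′, and all but the first span the peak centre and the 50 bases to each side of it, the window searched for motifs. Of the 640 sites, 7 held the RORE searched for (A, any base, then TAGGTCA, on either strand) and 6 are shown, with the RORE in capitals. The first comes from Pnpla2, the lipase of the first step of triglyceride breakdown (chr7:148642812-148642840, 29 bases only). The peak centre there was 48 bp upstream of a start, and the stretch shown lies further upstream than the centre. The others come from Ankrd23, a muscle ankyrin repeat protein (chr1:36593006-36593106), from Fndc7 (chr3:108661030-108661130), from Ctsc, a lysosomal protease (chr7:95425568-95425668), from Pabpc4, a poly(A)-binding protein (chr4:122973525-122973625), and from Dpy19l3, a mannosyltransferase (chr7:36514821-36514921).
Pnpla2: tgatggttgaAGTAGGTCAgagttgaccc
Ankrd23: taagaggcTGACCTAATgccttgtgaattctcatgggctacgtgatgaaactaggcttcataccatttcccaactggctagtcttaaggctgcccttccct
Fndc7: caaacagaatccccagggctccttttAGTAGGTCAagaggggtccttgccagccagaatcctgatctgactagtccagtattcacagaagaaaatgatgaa
Ctsc: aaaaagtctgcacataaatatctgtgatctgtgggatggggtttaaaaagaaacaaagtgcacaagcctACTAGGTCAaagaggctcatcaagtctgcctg
Pabpc4: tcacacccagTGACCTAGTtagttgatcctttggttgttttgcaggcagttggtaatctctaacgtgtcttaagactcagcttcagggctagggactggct
Dpy19l3: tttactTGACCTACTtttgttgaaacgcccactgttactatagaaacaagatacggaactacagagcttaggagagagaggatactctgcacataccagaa

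The E-box was found in 65 of the 640 sites. The next lines show, with CACGTG in capitals, sites with a liver border within 100 bp of the centre, from Tef, a clock output activator of the PAR bZIP family (chr15:81641677-81641777), Ifrd2 (chr9:107490375-107490475, 2 E-boxes), Taf8, a subunit of the general transcription factor TFIID (chr17:47639322-47639422, 2 E-boxes), Hoga1, a mitochondrial aldolase of hydroxyproline breakdown (chr19:42119865-42119965), and Mknk1, a kinase of the cap-binding factor eIF4E (chr4:115511693-115511793). The last of them come from sites with no liver border, at Lnx1, a ubiquitin ligase of the Notch regulator Numb (chr5:75099130-75099230), and at Stc2, a secreted glycoprotein of the stanniocalcin family (chr11:31269439-31269539). The E-box sequences and those of the next set were chosen after their values were seen.
Tef: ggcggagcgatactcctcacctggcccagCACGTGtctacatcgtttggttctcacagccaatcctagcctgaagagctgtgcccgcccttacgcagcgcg
Ifrd2: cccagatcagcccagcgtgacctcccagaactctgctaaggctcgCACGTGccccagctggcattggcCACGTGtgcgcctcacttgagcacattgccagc
Taf8: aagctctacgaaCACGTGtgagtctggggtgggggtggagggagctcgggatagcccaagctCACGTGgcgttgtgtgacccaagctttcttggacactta
Hoga1: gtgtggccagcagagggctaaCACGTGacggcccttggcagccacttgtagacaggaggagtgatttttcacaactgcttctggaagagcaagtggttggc
Mknk1: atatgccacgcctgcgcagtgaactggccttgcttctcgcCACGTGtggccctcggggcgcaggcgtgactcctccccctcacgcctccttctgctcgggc
Lnx1: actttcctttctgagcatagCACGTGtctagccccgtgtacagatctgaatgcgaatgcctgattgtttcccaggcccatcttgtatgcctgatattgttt
Stc2: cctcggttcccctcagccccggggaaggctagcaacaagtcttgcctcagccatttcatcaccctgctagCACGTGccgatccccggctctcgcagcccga

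The C/EBP motif TTGCNNAA, in which N is any base, was also found in 65 sites. It is in capitals at Lrrc28, with 5 liver borders (chr7:74723894-74723994). The last line is the site of Ip6k2, an inositol hexakisphosphate kinase (chr9:108697733-108697833), whose AGGTCA core, read on the minus strand, is in capitals.
Lrrc28: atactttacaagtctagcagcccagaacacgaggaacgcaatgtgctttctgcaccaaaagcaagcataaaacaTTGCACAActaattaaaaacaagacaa
Ip6k2: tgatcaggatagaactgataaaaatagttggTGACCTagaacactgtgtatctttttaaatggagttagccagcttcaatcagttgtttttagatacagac

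The 640 sites lay at 650 genes, of which 24 were the nearest gene of 2 sites each. Their scores, the authors' own values in a unit the file does not define, ran from 10.1 to 210.7 with a median of 14.2, and the median over all eWAT peaks was also 14.2. The rule chose the sites partly through which peaks passed the list's score threshold, so scores are a description here. The lowest score of the list was held by 87 sites (13.6%, beside 13.4% of all eWAT peaks), and 304 scored above the list's median (47.5%, beside 49.2% of all eWAT peaks). In rank, 28 sites stood within the first 500 eWAT peaks and 2 within the first 100. Those 2 belonged to clock output genes. Dbp, a PAR bZIP activator, had a peak of score 210.7 and rank 6, 238 bp upstream of its start (chr7:52960145-52960294), and Tef had one of score 138.8 and rank 23, 117 bp upstream of a start (chr15:81641652-81641801). All other scores were at or below 70.9. The 150 eWAT promoter sites that did overlap a brain peak, called shared promoter sites below, had a median score of 34.4.

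**Figure D1:**
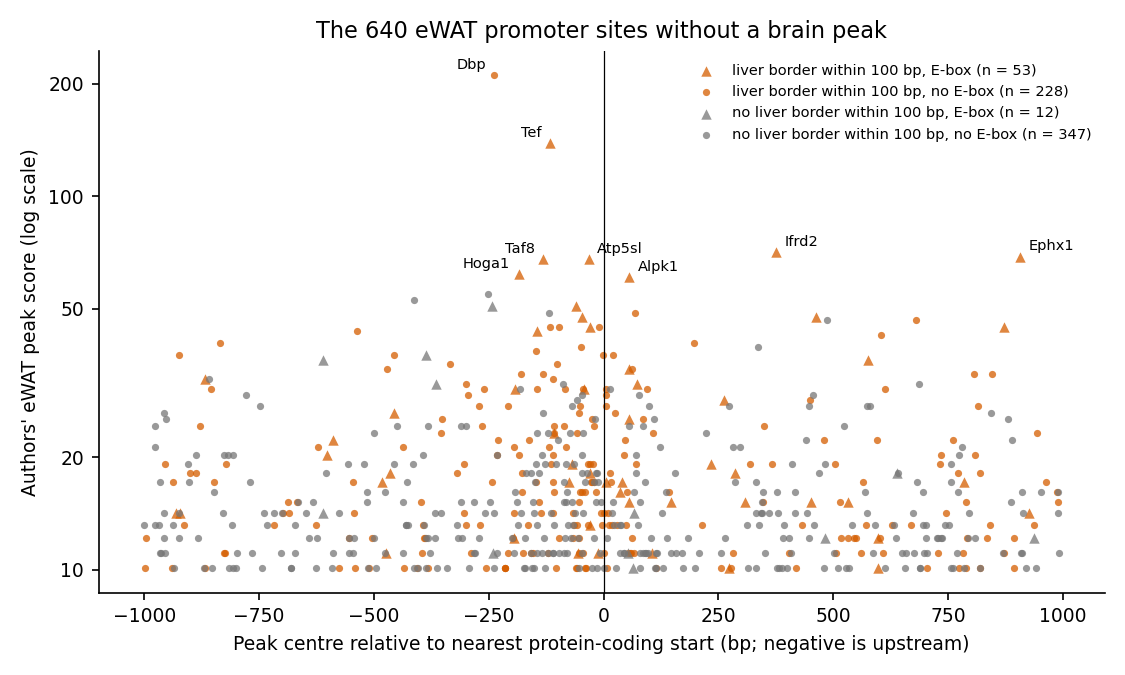
Authors' eWAT peak score (log scale) of each of the 640 sites against the distance of its centre from the nearest protein-coding start (bp, negative upstream). Colour marks a liver border within 100 bp and triangles mark an E-box within 50 bp of the centre. Dbp at 210.7 and Tef at 138.8 stand above all other sites, and 7 of the 8 sites named hold an E-box.

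The rule removed every site that overlapped a brain peak. Distances to brain peaks are therefore a description here and were not set against those of all eWAT peaks. The nearest brain peak centre was a median of 31736 bp away, and for 455 sites (71.1%) it was more than 10 kb away. At 82 sites, however, a brain peak centre lay within 1000 bp of the eWAT peak centre, and at 37 within 500 bp. These eWAT peaks thus had a brain peak near them without overlap. Whether that brain peak itself lay within 1000 bp of a start was not counted. Dbp (198 bp), Taf8 (210 bp), Tef (345 bp), Slc5a6, the sodium-dependent multivitamin transporter (653 bp), Ephx1, the microsomal epoxide hydrolase (848 bp), and Pnpla2 (937 bp) were among them. For 252 sites (39.4%) some brain peak lay within 10 kb of a start of the nearest gene. The members just inside the overlap rule were Arhgap12 and Srgap3, with brain peak centres 166 and 167 bp away, Per3 (178 bp), Srp72 (184 bp) and Dbp, whereas Gramd4 (148 bp), Nup50 (147 bp), Ppargc1b (140 bp), Dusp4 (138 bp) and Spg21 (134 bp) fell just outside it. The sites just inside the distance limit were at Glrx3 (1000 bp), Dnajc9 (999 bp), 3230401D17Rik (997 bp), A730049H05Rik (992 bp) and Serhl (990 bp), with scores of 10.1 to 16.2, and those just outside at Clock (1001 bp), Zfp608 (1002 bp), Nhsl2 (1003 bp), Col5a3 (1007 bp) and Erap1 (1008 bp), with scores of 13.2 to 39.5.

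Centres lay a median of 333 bp from the nearest start and 362 of 640 (56.6%) were upstream of it. By annotation, 317 centres were in an intron, 188 were intergenic, 79 were in a UTR and 56 in another part of an exon. The share within 100 bp of a start was 24.7% (158 sites), against 35.3% of the shared promoter sites and 46.7% of the 3896 brain promoter sites that overlapped no eWAT peak. Many of the starts were internal or alternative ones, since 388 sites (60.6%) lay within 1000 bp of the outermost start of a gene, against 77.3% of the shared and 85.1% of the brain promoter sites. At Pparg, which encodes the master regulator of fat cell formation, the site was 260 bp upstream of an alternative start within an intron (chr6:115371749-115371898, score 30.4). At Adipoq, which encodes the hormone adiponectin, the site was 104 bp upstream of the outermost start (score 19.2).

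Base composition set these sites apart from the other promoter sites. A site was called CpG-rich where the 250 bp on each side of its centre had at least 55% GC and an observed to expected CpG ratio of at least 0.65. By this measure 116 of 640 sites (18.1%, 95% Wilson interval 15.3 to 21.3) were CpG-rich, beside 37.7% of all protein-coding starts and 2.54% of all eWAT peaks. The share was 54.0% (81 of 150) at shared promoter sites (odds ratio, OR, 0.19, two-sided Fisher's exact test, Benjamini-Hochberg adjusted p = 1.22e-17) and 65.2% (2541 of 3896) at brain promoter sites (OR 0.12, 95% interval 0.095 to 0.15, exact test, adjusted p = 3.68e-113). The share also varied with the kind of start, at 26.0% of the sites near an outermost start and 5.95% of those at other starts only. With outermost starts alone it was 26.0%, against 62.9% of shared and 70.8% of brain promoter sites. The median GC content was 51.9% at the 640 sites, 60.3% at shared promoter sites and 62.3% at brain promoter sites. Among the CpG-rich ones were Tef (66.1% GC), Per3 (66.5%), Insr, the insulin receptor (65.3%), and the lipase gene Lipe (58.7%). Dbp (54.5%), Pparg (38.3%) and Cd36, a fatty acid uptake receptor (41.1% and 33.1% at its 2 sites), were not.

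Of the 640 sites, 281 had a liver border within 100 bp of the centre (43.9%, Wilson interval 40.1 to 47.8), beside 30.0% of all eWAT peaks and 25.9% of all protein-coding starts. The border list did not enter the choice of the sites. Their share was higher than the 26.1% (1999 of 7670) of the distal eWAT sites without a brain peak (OR 2.22, 95% interval 1.88 to 2.63, two-sided Fisher's exact test, adjusted over 3 comparisons p = 2.33e-20). It was lower than the 85.3% (128 of 150) of shared promoter sites (OR 0.135, 0.0795 to 0.22, exact test, adjusted p = 6.61e-21) and the 59.8% (2330 of 3896) of brain promoter sites (OR 0.526, 0.443 to 0.625, exact test, adjusted p = 8.49e-14). The border share was higher at higher scores, which is given with no test. Over 4 equal groups of 160 sites, low to high, it was 32.5%, 35.0%, 46.9% and 61.3%, and the median score was 17.2 for the 281 sites with a border and 13.2 for the 359 without.

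CpG-rich sites more often had a border than the others, and part of the gap to the brain promoter sites was not seen within each class. Of the 281 sites with a border 27.4% were CpG-rich, against 10.9% of the 359 without (OR 3.09, 1.99 to 4.86, Fisher's exact test, adjusted p = 9.33e-08). Among CpG-rich sites alone, 66.4% (77 of 116) had a border, against 68.3% of the brain promoter sites (OR 0.916, 0.609 to 1.4, exact test, adjusted p = 0.79) and 97.5% of the shared ones (OR 0.0505, exact test, adjusted p = 5.77e-08). Among sites that were not CpG-rich, 38.9% (204 of 524) had a border, against 26.0% of distal eWAT sites (OR 1.82, exact test, adjusted p = 1.19e-09), 71.0% of shared promoter sites (OR 0.261, exact test, adjusted p = 7.79e-07) and 43.8% of brain promoter sites (OR 0.817, 0.661 to 1.01, exact test, adjusted p = 0.0544). The lower share than at brain promoter sites therefore did not pass the threshold within either class, while the lower share than at shared promoter sites did within both. These splits by CpG class were added after the data were seen.

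**Figure D2:**
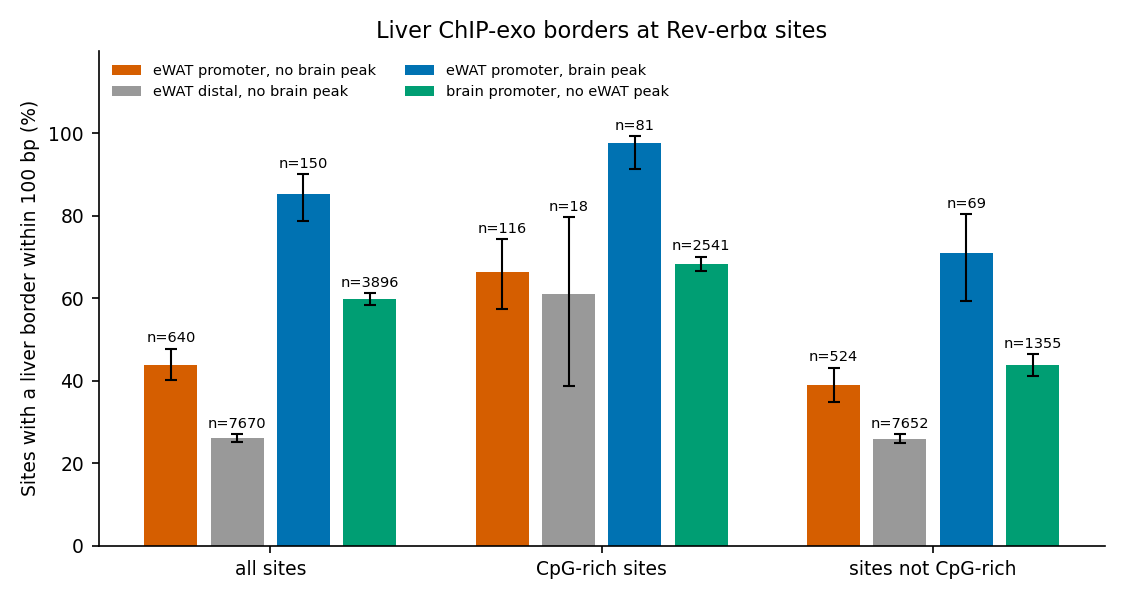
Percentage of sites with a liver ChIP-exo border within 100 bp of the centre, for all sites and by CpG class; bars are shares and error bars 95% Wilson intervals, which cover counting error only. The 640 sites (orange) stand at 43.9%, above distal eWAT sites (grey) and below shared (blue) and brain (green) promoter sites, and near the brain promoter sites within each CpG class.

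Where a border was present it was usually not alone. The 281 sites had a median of 2 borders and a median summed border signal (the authors' value, scale not stated) of 1.27, with quartiles of 0.494 and 2.76, against 4.10 at the shared promoter sites with a border, 1.1 at the brain promoter sites, 1.22 at the distal eWAT sites and 1.39 over all eWAT peaks with one. Both strands had a border at 141 of the 281 sites (50.2%), beside 52.4% of all eWAT peaks with a border, and 91 of the 640 sites (14.2%) held a plus border followed 5 to 60 bp downstream by a minus border, beside 11.6% of all eWAT peaks. The plus-strand borders (323 in all) had a median position 19 bp to the left of the peak centre on the genome's plus strand, and the minus-strand borders (306) a median position 24.5 bp to its right. At shared promoter sites these medians were 21 bp to the left and 28 bp to the right. They were 14 and 24.5 bp at distal eWAT sites and 7 and 13 bp at brain promoter sites. The quartiles at the 640 sites crossed the centre, at -48 to 16.5 bp for plus and -10 to 57 bp for minus borders. The arrangement of the medians, plus borders left and minus borders right of the centre, was seen in each of these sets. It is the one that exonuclease digestion leaves around a crosslinked protein.

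**Figure D3:**
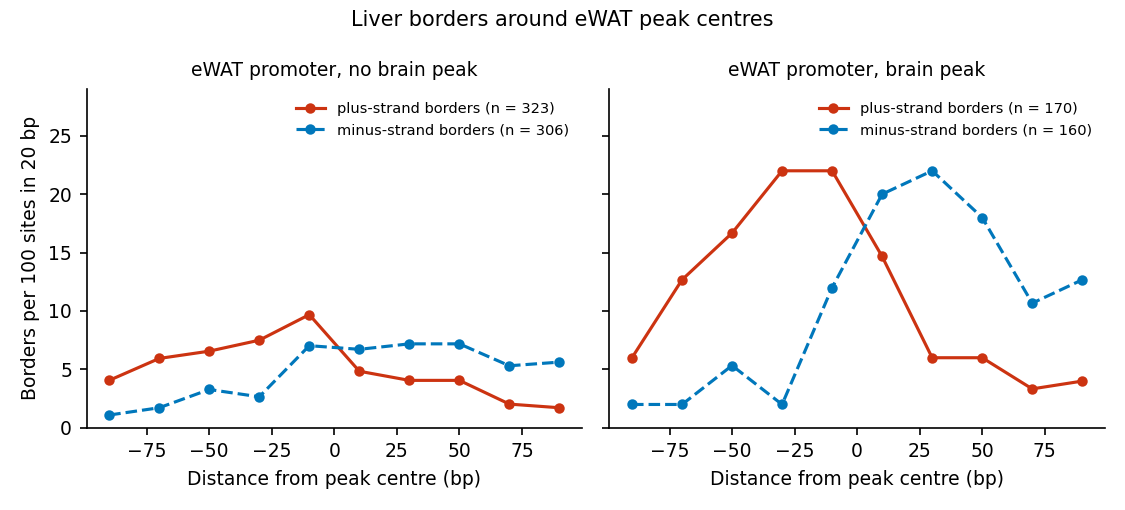
Liver borders per 100 sites in 20 bp steps around the eWAT peak centre (bp, genome orientation), plus-strand borders as solid and minus-strand borders as dashed lines, for the 640 sites (left) and the 150 shared promoter sites (right). Plus-strand borders peak at 9.69 per 100 sites just left of the centre in the 640 sites and at 22 in the shared ones, with minus-strand borders to the right in both.

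The summed border signal was largest at Dbp (18.5 from 3 borders). It was 9.80 at Narf, a nuclear prelamin A binding protein, 9.10 at Mknk1, 8.23 at Hoga1, 7.75 at Atp5sl and 7.24 at BC027231. Ip6k2, whose sequence is given above, had a signal of 7.22 with plus borders 23 and 12 bp left and a minus border 10 bp right of its centre, although its eWAT peak had the lowest score in the list (10.1). Selenbp1, a selenium-binding oxidase, and the clock repressor gene Per3 followed with 7.17 and 6.80. A strong liver signal and a high eWAT score therefore went together at Dbp and Hoga1 and apart at Ip6k2 and Selenbp1 (score 18.2).

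The motif that differed between sites with and without a border was the E-box. It was present at 65 of 640 sites (10.2%), beside 9.06% of all eWAT peaks and 2.68% of all protein-coding starts, and at 1.33% of the same width 1000 bp to either side. It stood within 50 bp of the centre at 53 of 281 sites with a border (18.9%, 14.7 to 23.8) and at 12 of 359 without (3.34%, 1.92 to 5.75). The OR was 6.70 (3.44 to 14.1, two-sided Fisher's exact test, adjusted over 17 motifs p = 1.44e-09). Read the other way, 53 of the 65 sites with an E-box (81.5%) had a border, against 228 of the 575 without one (39.7%). The other sets had the same order, given with no test, at 96.4% with an E-box and 78.9% without at shared promoter sites, 81.1% and 57.9% at brain promoter sites, and 45% and 24.4% at distal eWAT sites. Among sites that were not CpG-rich the shares were 15.2% with a border and 2.81% without (OR 6.17, exact test, adjusted p = 5.3e-06), and among the CpG-rich ones 28.6% and 7.69% (OR 4.75, exact test, adjusted p = 0.156).

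Many of the highest-scoring sites held an E-box, though the 65 E-box sites were spread over all scores, with 7, 10, 19 and 29 of them in the 4 score groups from low to high. An E-box was present at 11 of the 15 highest-scoring sites with a border, at Tef, Ifrd2, Ephx1, Taf8, Atp5sl, Hoga1, Alpk1 (an alpha kinase), Mknk1, Jag1 (a Notch ligand), Pnpla2 and Slc36a1 (a proton-coupled amino acid transporter). Their scores ran from 138.8 at Tef to 44.6 at Slc36a1. Dbp, Slc5a6 (48.6) and Lrrc28 (46.6) were among those without one. Of the 15 highest-scoring sites without a border 4 held an E-box, at Lnx1 (50.7), Stc2 (37.5), Cldn22 (36.5), a claudin of tight junctions, and Arpc3 (31.4), a subunit of the Arp2/3 actin nucleator. Over the 4 score groups, low to high, the E-box share was 4.38%, 6.25%, 11.9% and 18.1%, and the C/EBP share was 8.13%, 10.0%, 11.3% and 11.3%. Among the 304 sites above the list's median score the E-box shares were 24.9% with a border and 3.60% without.

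At the sites with an E-box the letters lay close to the centre, a median of 18.5 bp away and within 20 bp at 36 of 65. Of the plus borders at these sites 53 of 80 were left of the E-box, with a median 15.5 bp to the left. Of the minus borders 47 of 67 were right of it, with a median 13.5 bp to the right. Around the C/EBP motif, at sites that held it, 38 of 53 plus borders were left and 38 of 49 minus borders right. Around the AGGTCA core these counts were 25 of 49 and 31 of 45. Around the peak centre of the whole set, the medians were 19 bp to the left for plus borders and 24.5 bp to the right for minus borders. Whether the split at the E-box differed from these was not tested. At Mknk1, with 3 plus borders 46, 29 and 21 bp left of the centre and 1 minus border 25 bp right of it, the E-box fell between them, as the sequence above shows. At Hoga1 a plus border 63 bp left and a minus border 13 bp left of the centre likewise flanked it. At Ifrd2 both borders were on the minus strand, 10 and 35 bp right of the centre. Tef had a single minus border, 6 bp left of the centre.

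No other motif passed the test between sites with and without a border. The AGGTCA core, which is also part of the RORE, was found at 13.9% with a border and 7.52% without (OR 1.98, 1.15 to 3.46, exact test, adjusted p = 0.0969), and the C/EBP motif at 13.5% and 7.52% (OR 1.92, 1.11 to 3.37, exact test, adjusted p = 0.0969). Among sites that were not CpG-rich both were called, each at 17.2% with a border and 7.81% without (OR 2.44, exact test, adjusted p = 0.00998). The GC box GGGCGG, which SP and KLF factors bind, was found at 8.90% and 4.74% (OR 1.96, exact test, adjusted p = 0.159). It was called with wider motif windows, at 14.9% and 6.41% within 75 bp (OR 2.56, exact test, adjusted p = 0.00451) and at 20.3% and 10.3% within 100 bp (OR 2.21, exact test, adjusted p = 0.00396). The RORE was present at 4 sites with a border, Pnpla2 with 6 borders, Ankrd23, Dpy19l3 and Osbpl1a with 1 each, and at 3 without, those of Fndc7, Ctsc and Pabpc4.

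**Figure D4:**
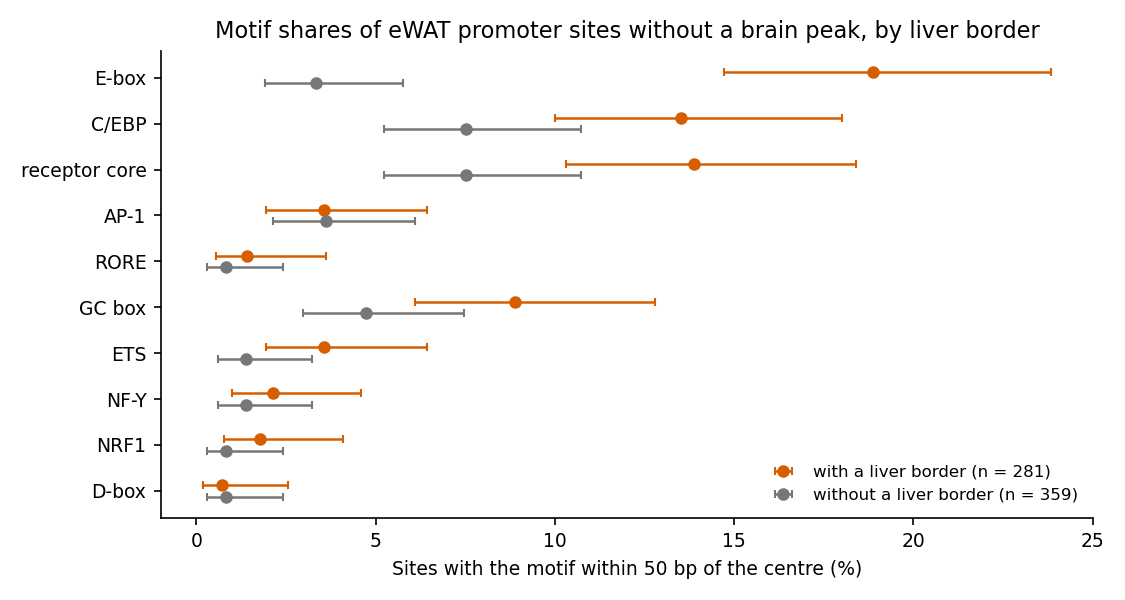
Percentage of sites with each motif within 50 bp of the centre for the 281 sites with a liver border (orange) and the 359 without (grey); error bars are 95% Wilson intervals. Receptor core is AGGTCA. The E-box stands at 18.9% with a border and 3.34% without, and the intervals of the other motifs overlap.

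Against the promoter sites of the brain, C/EBP and receptor motifs were more frequent at these sites. The C/EBP motif was present at 10.2% of the 640 sites, beside 14.0% of all eWAT peaks and 2.64% of all protein-coding starts. It was present at 2.80% of brain promoter sites (OR 3.93, 2.81 to 5.46, two-sided Fisher's exact test, adjusted over 34 tests p = 8.72e-14) and at 4.00% of shared promoter sites (OR 2.71, 1.15 to 7.81, exact test, adjusted p = 0.0405). Distal eWAT sites without a brain peak held it at 15.1%. The AGGTCA core was present at 10.3% of the 640 sites, beside 13.9% of all eWAT peaks and 4.63% of all starts, and at 4.75% of brain promoter sites (OR 2.31, 1.69 to 3.12, exact test, adjusted p = 1.21e-06). Shared promoter sites held it at 6.67% (OR 1.61, 0.796 to 3.6, exact test, adjusted p = 0.37). The full RORE was at 1.09% of the 640 sites, beside 2.85% of all eWAT peaks and 0.112% of all starts, against 0.257% of brain promoter sites (OR 4.30, 1.38 to 12.6, exact test, adjusted p = 0.0164). The RORE call was lost among sites not CpG-rich (exact test, adjusted p = 0.323) and with outermost starts alone (0.2).

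Further motifs were more frequent than at brain promoter sites on small counts. The AP-1 motif TGANTCA was present at 3.59%, beside 4.85% of all eWAT peaks and 1.94% of all starts, against 1.95% (OR 1.87, exact test, adjusted p = 0.0327). The glucocorticoid receptor element (GNACA, 3 bases, TGTNC) was at 5 of 640 sites (0.781%), beside 1.92% of all eWAT peaks and 0.150% of all starts, against 4 of 3896 (OR 7.66, 1.64 to 38.7, exact test, adjusted p = 0.0144). That call was lost above the score median (exact test, adjusted p = 0.0891), among sites not CpG-rich (0.141) and with outermost starts alone (0.2). One of those 5 was at Thra, the thyroid hormone receptor α. The element of a Rev-erb dimer, AGGTCA, any 2 bases, then AGGTCA, was not found in any of the 640 windows, beside 0.144% of all eWAT peaks and 0.00143% of all starts, and a share of up to 0.597% is within the Wilson interval.

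The GC box, ETS, NF-Y and NRF1 motifs were less frequent than at brain promoter sites, and the GC box and NRF1 motif also than at shared ones. The GC box was present at 6.56% of the 640 sites, beside 2.44% of all eWAT peaks and 21.7% of all starts, against 31.3% of brain promoter sites (OR 0.154, exact test, adjusted p = 8.76e-46) and 23.3% of shared promoter sites (OR 0.231, exact test, adjusted p = 1.37e-07). The ETS motif CCGGAAG was present at 2.34%, beside 0.787% of all eWAT peaks and 5.39% of all starts, against 6.19% of brain promoter sites (OR 0.364, exact test, adjusted p = 0.000152) and 2.67% of shared ones (OR 0.876, exact test, adjusted p = 0.969). The NF-Y motif CCAATCA was present at 1.72%, beside 1.14% of all eWAT peaks and 1.75% of all starts, against 3.88% of brain promoter sites (OR 0.434, exact test, adjusted p = 0.0164) and 4.00% of shared ones (OR 0.42, exact test, adjusted p = 0.221). The NRF1 motif GCGCANGCG was at 1.25%, beside 0.344% of all eWAT peaks and 3.21% of all starts, against 3.85% of brain promoter sites (OR 0.316, exact test, adjusted p = 0.00198) and 6.00% of shared ones (OR 0.199, exact test, adjusted p = 0.00661). The CRE, YY1 and ZNF143 motifs, at up to 0.781% of the 640 sites, did not pass against brain promoter sites (exact tests, adjusted p = 0.363, 0.846 and 0.316).

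The E-box and D-box were less frequent than at shared promoter sites, and neither passed the test against brain promoter sites. The E-box was present at 10.2% of the 640 sites, against 36.7% of shared promoter sites (OR 0.196, 0.126 to 0.305, Fisher's exact test, adjusted p = 1.14e-12) and 8.16% of brain promoter sites (OR 1.27, 0.945 to 1.69, exact test, adjusted p = 0.221). The D-box TTATGTAA, bound by PAR bZIP factors such as DBP and TEF, was at 5 of 640 sites (0.781%), beside 1.40% of all eWAT peaks and 0.163% of all starts, against 7 of 150 shared promoter sites (4.67%; OR 0.161, exact test, adjusted p = 0.00997) and 0.565% of brain promoter sites (OR 1.39, 0.409 to 3.77, exact test, adjusted p = 0.835). One of the 5 was BC027231. With CpG-rich sites left out on both sides, the E-box was at 7.63% against 33.3% of shared promoter sites (OR 0.166, exact test, adjusted p = 3.05e-07) and was the single motif of that comparison past the threshold. Against brain promoter sites 3 motifs then passed, the C/EBP motif at 11.5% against 3.47% (OR 3.60, exact test, adjusted p = 4.85e-09), the AGGTCA core at 11.5% against 6.35% (OR 1.91, exact test, adjusted p = 0.00297) and the GC box at 4.58% against 16.5% (OR 0.243, exact test, adjusted p = 3.86e-12), while the RORE, with 1.34% against 0.517%, did not (OR 2.61, exact test, adjusted p = 0.323).

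**Figure D5:**
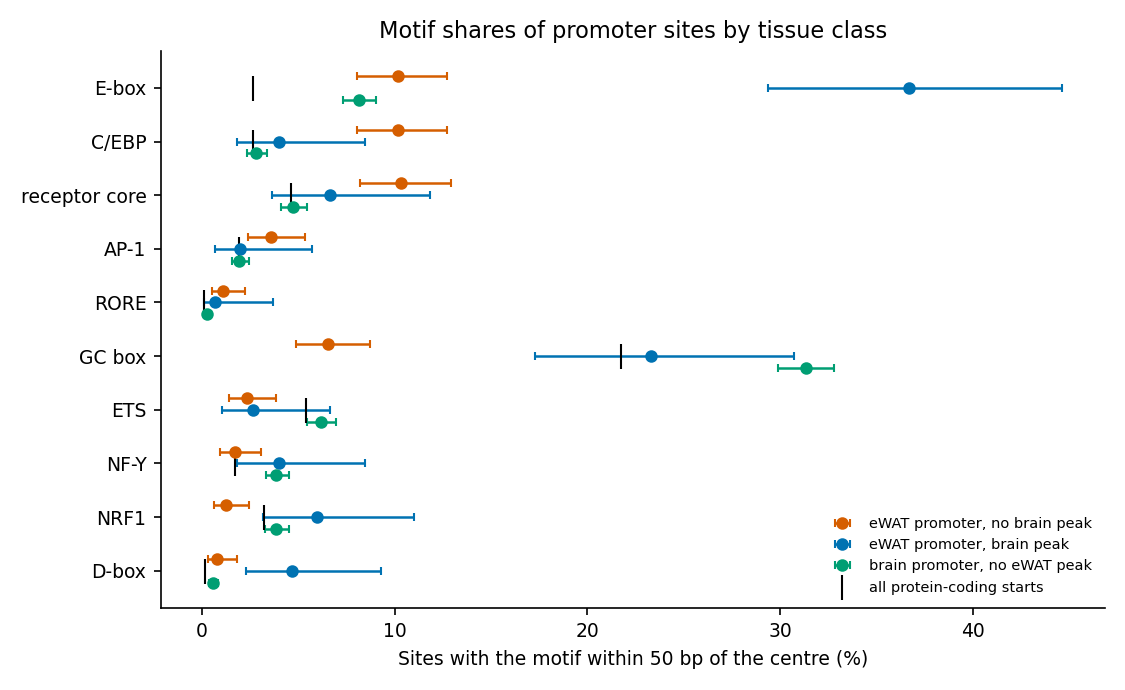
Percentage of promoter sites with each motif within 50 bp of the centre for the 640 sites (orange), the 150 shared promoter sites (blue) and the 3896 brain promoter sites (green); error bars are 95% Wilson intervals and black ticks are all protein-coding starts. Receptor core is AGGTCA. The C/EBP motif and the receptor core stand at 10.2% and 10.3% of the 640 sites, the E-box at 36.7% of shared promoter sites and the GC box at 31.3% of brain promoter sites.

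The 15 highest scores among sites without a border ran from 29.4 to 54.7. None of these sites had a brain peak centre within 1000 bp, and neither did 558 of all 640 sites. The nearest was 2471 bp away at Oscp1. Of the 15 highest with a border, whose scores ran from 44.6 to 210.7, 6 had one. Over all sites, 45 of the 82 with a brain peak centre within 1000 bp had a border (54.9%) and 17.1% held an E-box, against 42.3% and 9.14% of the 558 others, and these shares are given with no test. The highest was at Spns1, a lysosomal lipid transporter (54.7, chr7:133518053-133518202, 251 bp upstream of an alternative start), followed by BC024139 (52.7) and Lnx1. Lrrc27 had 2 sites without a border, of scores 48.6 and 39.5, each at an alternative start. Oscp1 (46.6) held a C/EBP motif. Fam124b, Klhl3 (an adaptor of cullin ubiquitin ligases) and Arpc3 shared a score of 31.4, the matrix genes Ogn and Ccdc80 one of 30.4, and Gm10754 had 29.4.

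Genes with such a site were counted in 15 lists, and the count is read against the 2.93% of all 22208 protein-coding gene symbols that had one. Shared promoter sites were at 0.689% and brain promoter sites at 17.8% of the same symbols. Of 27 genes of adipocyte identity and lipid storage, 9 had a site (33.3%), 7 of them with a border at some site and 6 at the highest-scoring one, while 1 had a shared promoter site and 6 a brain promoter site. Pnpla2 had the highest score (47.6, 6 borders, summed signal 5.83), with a RORE, an E-box and an AP-1 motif within 50 bp of the centre. Lipe, the hormone-sensitive lipase of the next step of fat breakdown, had a site of score 30.4 with an E-box and 3 borders (chr7:26181123-26181272). Acsl1, which activates fatty acids to acyl-CoA, had one of score 30.4 with 1 border, 720 bp from a brain peak centre. Pparg had one of the same score with 4 borders and none of the motifs, 169130 bp from the nearest brain peak.

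The other adipocyte sites were weaker. Agpat2, an acyltransferase of triglyceride synthesis, had a score of 24.3 with 5 borders and a C/EBP motif. Cd36 had sites of scores 24.3, without a border, and 12.2, with 1 border, a C/EBP motif and an AGGTCA core. Plin4, a lipid droplet coat protein, had a score of 21.3 with 3 borders. Adipoq (19.2) and Cfd, which encodes the secreted protease adipsin (15.2), had no border. The sites of Pnpla2, Lipe, Pparg and Agpat2 and the stronger one of Cd36 lay more than 1000 bp from any outermost start. Those of Acsl1, Plin4, Adipoq and Cfd lay within that distance of one. A brain peak lay within 10 kb of a start of Pnpla2, Lipe and Acsl1, but of none of the other adipocyte genes with a site. The lists of other cell types had 1 gene each: Col1a1, a fibroblast collagen, of 16 stromal and immune genes (score 14.2, no border) and Camk2b, a calcium-dependent kinase of neurons, of 24 neuron genes (score 24.3, no border, a brain peak centre 200 bp away). Neuron genes had a brain promoter site in 4 of 24 cases, near the share of all symbols.

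Of 23 core clock genes, 6 (26.1%) had a site of this kind, against 13 with a shared promoter site and 12 with a brain promoter site. Dbp, Tef and Per3 were described above, and Per3 had a score of 27.4 with 2 borders of summed signal 6.80. Bhlhe40, a repressor that binds E-boxes, had a score of 20.3 with 2 borders, 810 bp downstream of a start in an intron. Hlf, the remaining PAR bZIP activator, had the lowest score (10.1) but 3 borders of summed signal 2.41. Rora, an activator that competes for the RORE, had a score of 14.2 and no border. A brain peak lay within 10 kb of a start at all 6 genes, at distances from 178 bp (Per3) to 6341 bp (Rora) from the site.

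Among 30 genes in the list of lipid and glucose metabolism, 3 had a site, namely Fgf21, a hormone of fasting and fat (score 19.2, an E-box, 3 borders of summed signal 2.13), Acaca, which makes malonyl-CoA for fatty acid synthesis (19.2, a C/EBP motif, 1 border), and Pygl, the liver glycogen phosphorylase (14.2, an AGGTCA core, no border). Of 20 insulin and growth factor genes 3 had one, Insr (27.4, 6 bp from its outermost start, 4 borders of summed signal 2.76) and the kinases Akt2 (17.2) and Akt1 (15.2), both without a border. Of 10 heme genes Alas1 had one, the rate-limiting enzyme of heme synthesis (21.3, an AGGTCA core, 1 border), and of 6 genes of the NCoR and HDAC3 complex Ncor1 had one, the corepressor itself (15.2, no border). A brain promoter site was at 9 of the 30 metabolism genes and 8 of the 20 insulin and growth factor genes. It was at 2 of the 10 heme genes and 2 of the 6 complex genes, beside 17.8% of all symbols.

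Of 36 nuclear receptors 4 had a site, beside 1 with a shared promoter site and 11 with a brain promoter site. Nr4a3, an orphan receptor of the immediate early class, had a score of 33.4 with 2 borders, Thra 26.3 with none, Nr2f2 12.2 with 5 borders of summed signal 4.84 and an E-box, and Rxrg, a partner of other receptors, 11.1 with 2 borders and an AGGTCA core.

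Lists of general cell functions held 0 to 3 genes with a site, each list at or below 6.82%, beside 2.93% of all symbols. Of 91 respiratory chain genes 2 had a site (2.20%), Atp5sl (67.9, an E-box, 5 borders of summed signal 7.75) and Ndufv3 (18.2, 1 border), against 28 with a brain promoter site. Of 40 proteasome genes 1 had one, Psma4 (2.50%, score 19.2, no border), and of 44 translation initiation genes 3 (6.82%), Eif3g (24.3, 2 borders), Eif4g1 (15.2, 2 borders) and Eif2d (11.1, none). None of 83 ribosomal protein genes, 62 splicing factors or 12 housekeeping genes had one. At the share of all symbols few genes in lists of this size would have one, so these counts of 0 are not read as a depletion. A brain promoter site was at 24, 32 and 5 of them, beside 17.8% of all symbols.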

How the data were processed

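Rev-erbα ChIP-seq of eWAT and brain and ChIP-exo of liver were analysed from 1 deposited list each; whether libraries were pooled for it is not stated in the labels. The peak score was deposited by the authors in a unit the files do not define and was used only to describe and rank peaks within the eWAT list. Per the file headers, the columns of the ChIP-exo list are a signal and a p-value of each border (0.005 to 0.05 in the deposited list). Per the submitters' processing notes the build was mm9, with Bowtie 0.12.8 for ChIP-seq, Bowtie 1.1.1 for ChIP-exo and HOMER for both; roles, caller settings and use of inputs are not given in these sources. A deeper library or looser threshold would change which peaks lack a partner in the other tissue.

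Peaks (150 bp) were placed by their centre against 69930 start positions of all transcripts of 22350 protein-coding genes (GENCODE vM1, mm9), with Python 3.11.15, pandas 2.3.3, pysam 0.24.0, samtools 1.23.1 and scipy 1.17.1. A centre counts as UTR, other exon, intron or intergenic by any protein-coding gene. Borders were counted within 100 bp, motifs (17, exact letters, both strands, overlaps between motifs allowed) within 50 bp. The AGGTCA core is part of the RORE and of the dimer element. Fisher's exact tests were two-sided, with exact conditional intervals of odds ratios and Benjamini-Hochberg adjustment over 3 border comparisons, 3 CpG comparisons, 34 motif tests against promoter sites and 17 with against without a border; the threshold was 0.05. Wilson intervals are at 95% and cover counting error only. Sites are neighbours in 1 genome and not replicates, so p-values are too small by an unknown amount. The tests were checked on simulated data.

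The sites, gene lists and motifs were chosen with earlier results of these data known. Named were the 15 highest-scoring sites with and the 15 without a border, the 10 with the largest summed border signal, up to 6 per gene list by score, those with a RORE, and the nearest to each limit. Outside this rule, the remaining members of short lists and counts (Plin4, Adipoq, Cfd, the weaker site of Cd36, and the sites nearest the overlap limit) were named after their values were seen. A gene counted as having a site where a centre lay within 1000 bp of one of its starts; all 205 listed symbols were matched, 3 by an older symbol. No enrichment test was run on the gene lists. A few sites and sequences that the rule selects are not reported here.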

Additional observations from a re-analysis of the deposited data

How the results depend on the processing

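No paired analysis was possible because each group is represented by 1 deposited list with no values per replicate, and for the same reason no replicate could be left out. Over 26 results, 108 of 131 alternative tests kept the direction and the side of the threshold, and 10 of 25 alternative counts were within 1.5 times. The number of sites was 412 with a limit of 500 bp to a start, 1037 with 2000 bp, 304 among peaks above the score median and 388 with outermost starts alone. With borders of p up to 0.01 the order against shared promoter sites turned round (13.0% against 10.0%, odds ratio 1.34 by Fisher's exact test, adjusted p = 0.577), and the lower share than at brain promoter sites was not called (odds ratio 0.928, exact test, adjusted p = 0.577). That limit does not select the stronger borders, since their median signal over the list was 0.418, against 0.497 for the others. It was also not called with border pairs (odds ratio 0.84, exact test, adjusted p = 0.164), among CpG-rich sites (0.916) or among the others (0.817). Against distal eWAT sites the odds ratio was 1.25 among CpG-rich sites (exact test, adjusted p = 0.79), where the distal set held 18 sites. The cause was not tested.

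Motifs past the threshold against shared promoter sites, 5 in the analysis reported, numbered 3 above the score median, 1 among sites not CpG-rich and 3 with outermost starts. Against brain promoter sites, 9 became 3 among sites not CpG-rich and 5 with outermost starts. Between sites with and without a border, the 1 motif became 2 with motif windows of 75 or 100 bp, with borders within 50 bp or with no brain peak centre within 500 bp, 3 among sites not CpG-rich, and 0 by Fisher's exact test among the 116 CpG-rich sites (2 at an unadjusted p under 0.05), where the E-box odds ratio was 4.75 (exact test, adjusted p = 0.156). Settings by CpG class, outermost start, transcript type and, for motifs with and without a border, brain peak distance were chosen after seeing the data. The C/EBP excess over shared promoter sites was not called above the score median (odds ratio 2.70, exact test, adjusted p = 0.0776) or among sites not CpG-rich (1.65). Without a call either way, the RORE against shared promoter sites turned to an odds ratio of 0.857 with 75 bp windows, and C/EBP with against without a border to 0.752 among CpG-rich sites. Depth is unknown, so how many sites lack a brain peak for want of reads cannot be told.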
